A study of Homo sapiens with 4 samples.

Results

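The far end of the long arm of human chromosome 8, band 8q24, was examined gene by gene in 4 RNA-seq libraries of HT8, a cell line labelled as colon cancer. The stretch runs from 124.9 Mb to the end of the last gene at position 145066685 in the GRCh38 build, 20.2 Mb in all. It holds 131 protein-coding genes, of which 80 were kept. These 80 had a mean of at least 1 FPKM (fragments per kilobase of exon and scaled to sequencing depth) over the 4 libraries. Another 45 coding genes fell under that level, and 6 were left out by symbol (CYC1, HSF1, NDRG1, PLEC, SQLE and RPL8). The files list 58735 genes, of which 10766 coding genes reached a mean of 1 FPKM. The stretch was selected on measured values of the comparison described here, so the calls and fold changes of its genes are a description and support nothing further.

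Of the 4 libraries, 2 carry the genotype label control, with the source name HT8. The other 2 carry the genotype label PPDPF knockdown, with the source name HT8-cas1. No treatment, time point or further allele is named for either group, and the labels do not say how the knockdown was made. Total RNA was extracted with Trizol in all 4. Whether the 2 libraries of a group were grown separately is not labelled, and their spread may be technical only.

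Band 8q24 is known for MYC, the transcription factor that drives ribosome production, nucleotide synthesis and cell-cycle entry, and whose level is raised in most colon cancers downstream of Wnt signalling. MYC lies in a gene-poor region together with the long non-coding gene PVT1. Towards the chromosome end the gene density rises steeply, and this part includes the LY6 cluster. LY6 proteins are small, with the disulphide-bonded fold of the urokinase receptor uPAR, and most are held at the cell surface by a glycosylphosphatidylinositol (GPI) anchor.

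Depth was similar across libraries. Reads falling in genes, recovered from the FPKM values and exon lengths, numbered 17348315 and 19479906 in the controls and 17330674 and 17069628 in the libraries labelled knockdown. PPDPF itself stood at 237 and 266 FPKM in the controls and at 281 and 283 FPKM in the libraries labelled knockdown, a log2 fold change of 0.16 (SE 0.06) that was not called. The targeted gene was therefore not lower where the label says knockdown, and every direction below refers to the label alone. Colon epithelial markers were abundant, with a summed level of 2624 and 2806 FPKM in the controls and 3166 and 3140 FPKM in the libraries labelled knockdown. Of their 9 tested genes 5 were called higher and 1, CDH1, lower, beside 16.8% and 13.0% of all tested genes. Fibroblast markers summed to between 0.385 and 0.730 FPKM, with 4 of 9 listed at 0 in all libraries, and immune markers to between 1.32 and 2.20 FPKM, with 4 of 8 at 0. CD14, the only immune marker tested, was called lower, with a log2 fold change of -0.53. The part of these marker differences in the results on 8q24 was not tested. In bulk RNA, fewer cells expressing a gene and less of its RNA per cell cannot be told apart.

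Most of the 80 genes had more RNA in the libraries labelled knockdown. A gene was called when its adjusted p in limma's moderated test across 12777 genes was under 0.05. By that rule 62 of the 80 were called higher, where 16.8% of all tested genes were. MYC and RHPN1 were called lower, where 13.0% of all tested genes were, and 16 were not called. Both libraries labelled knockdown lay above both controls for 74 of the 80 genes and below both for 4, against 35.9% and 33.8% of all tested genes. The selection used this contrast, so nothing is read from these shares.

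The difference was moderate for most genes rather than large for a few. The median ratio of mean FPKM, labelled knockdown over control, was 1.47 (quartiles 1.26 and 1.72), and the ratios ran from 0.610 for RHPN1 to 4.73 for LY6D. Ratios between 1.25 and 2 were found for 52 genes, or 65.0%, where 12.9% of all tested genes had one. Ratios of at least 2 were found for 10 genes, or 12.5%, where 1.86% of all tested genes had one. On the scale of log2(FPKM + 1) the median fold change of the 80 genes was 0.49, beside 0.0011 over all tested genes.

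**Figure D1:**
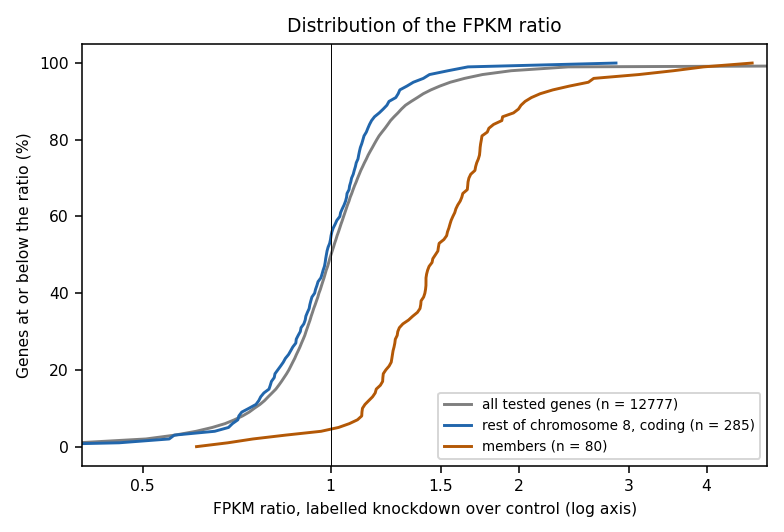
Cumulative share of genes (y axis, percent) at or below each ratio of mean FPKM, labelled knockdown over control (x axis, log scale), for all 12777 tested genes, for the 285 other coding genes of chromosome 8 and for the 80 genes of the 8q24 end. The curve of the 80 genes crosses 50% at 1.47 and those of the other sets near 1.

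Libraries of one group gave nearly the same values along the stretch. The median over the 80 genes, measured from the mean of the controls on the log2(FPKM + 1) scale, was 0.0053 and -0.0053 in the 2 controls and 0.50 and 0.49 in the 2 libraries labelled knockdown. The median SD of a gene between libraries of one group was 0.046 in the controls and 0.040 in the libraries labelled knockdown. Together the 80 genes took 0.388% and 0.384% of all reads in genes in the controls. In the libraries labelled knockdown they took 0.566% and 0.557%.

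**Figure D2:**
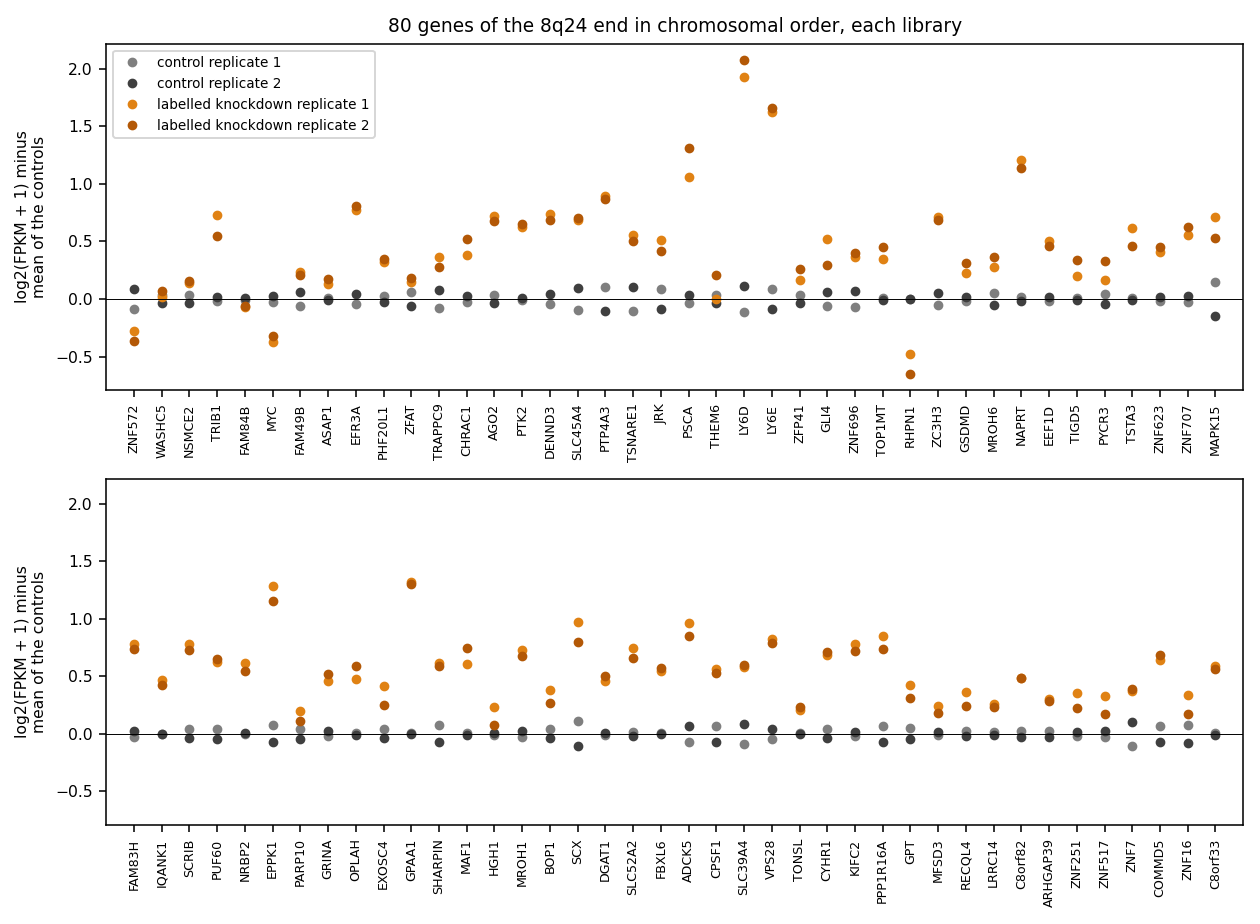
Level of each of the 80 genes in each library, as log2(FPKM + 1) minus the mean of the 2 controls (y axis), with the genes in chromosomal order along the x axis, 40 in each panel. Points of both libraries labelled knockdown lie above both control points for 74 genes, and below them for ZNF572, FAM84B, MYC and RHPN1.

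The higher levels were not spread evenly along the stretch. Of the 8 genes before EFR3A, which starts 7.004 Mb into the stretch, TRIB1 and FAM49B were called higher, MYC was called lower and 5 were not called. Their median log2 fold change was 0.10. From EFR3A to the chromosome end lay 72 genes, of which 60 were called higher, RHPN1 lower and 11 not, with a median of 0.53. Over all tested genes 16.8% were called higher and 13.0% lower. The boundary at EFR3A was set after the values were seen, so nothing is read from the counts on its 2 sides. Gene density differs along the same axis, since 69 of the 80 genes lie within the last 5.34 Mb, from TRAPPC9 on, and 56 lie after LY6E, whose start is 2.05 Mb from the end of the last gene.

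Medians over 10 neighbouring genes, taken every 5 genes, lay between 0.15 and 0.70 in the 15 windows of the stretch. In the 56 windows over the rest of chromosome 8 they lay between -0.22 and 0.16. Of the 285 other coding genes on the chromosome 35 were called higher and 52 lower, beside 16.8% and 13.0% of all tested genes. Their median log2 fold change was -0.02. The 20 Mb next to the stretch held 34 coding genes, with 1 called higher and 9 lower. The same windows taken between libraries of one group were near 0 within the stretch, from -0.05 to 0.03 for control 2 minus control 1 and from -0.06 to 0.06 between the libraries labelled knockdown.

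**Figure D3:**
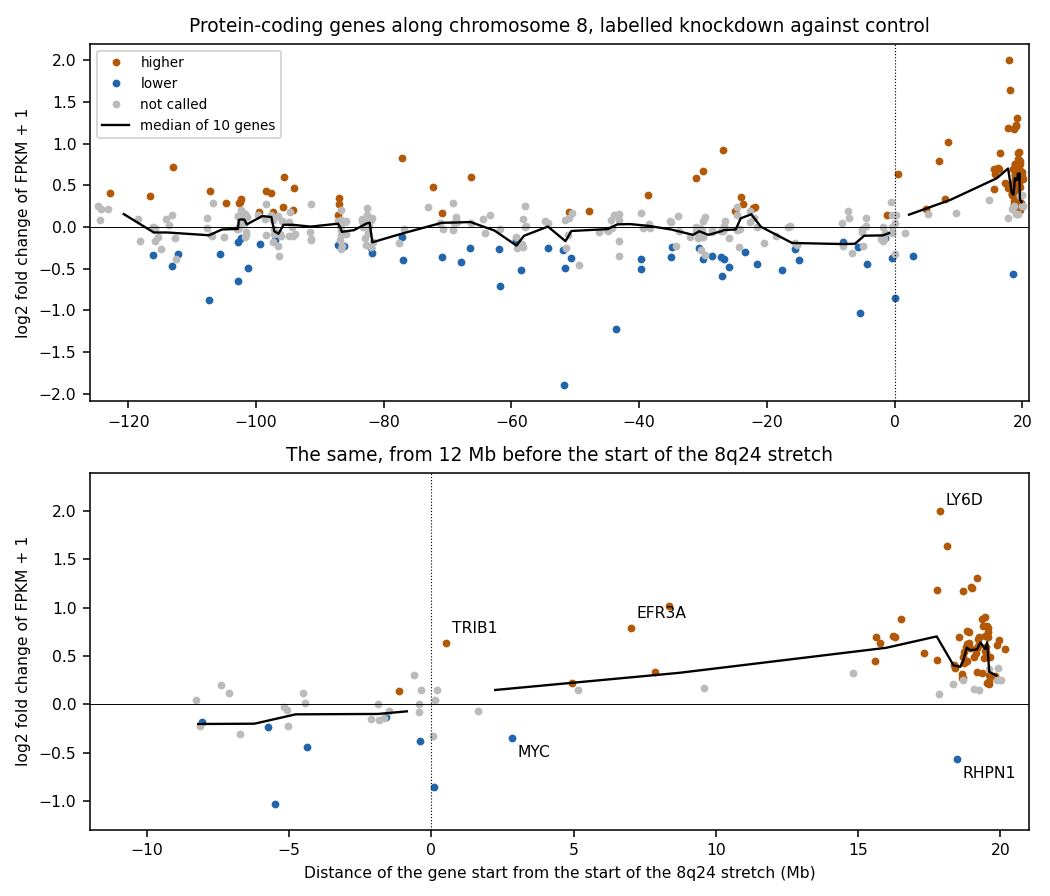
Log2 fold change of FPKM + 1 (y axis) of each tested coding gene of chromosome 8 against the distance of its start from the start of the 8q24 stretch (x axis, Mb), over the whole chromosome above and from 12 Mb before the stretch below. Points are coloured by call and include the 6 genes left out by symbol, and the black line is the median of 10 neighbouring genes, which stays between -0.22 and 0.16 before the stretch and reaches 0.70 within it.

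No shared step to higher levels was seen at the start of the stretch itself. Going outward from 124.9 Mb, the log2 fold changes were 0.14 for NDUFB9, a subunit of respiratory complex I, -0.38 for TATDN1, a DNase-like gene, and 0.00 for the ubiquitin ligase gene RNF139. They were -0.07 for TRMT12, a tRNA modification enzyme, and 0.30 for TMEM65, a mitochondrial membrane protein. Of these 5 only TATDN1 was called, at 3.84 and 3.599 FPKM in the controls and 2.45 and 2.84 FPKM in the libraries labelled knockdown, and its call was lost without control 1, without control 2 or without knockdown 1. The first genes kept inside were ZNF572 at -0.32, WASHC5 at 0.04 and NSMCE2 at 0.15, none of them called. SQLE, left out by symbol, lies between ZNF572 and WASHC5 and was called lower, at -0.85. The next gene kept, TRIB1, was called higher, at 0.64.

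MYC (ENSG00000136997, chromosome 8, 127735434 to 127741434, plus strand) had the highest mean level of the 80 genes. It stood at 77.3 and 79.7 FPKM in the controls and at 60.4 and 62.7 FPKM in the libraries labelled knockdown. The groups did not overlap, and MYC was lower in both libraries labelled knockdown, opposite to most genes of its chromosome end. The means were 78.5 ± 1.71 FPKM (SD, n = 2) and 61.6 ± 1.68 FPKM (SD, n = 2), a ratio of 0.785 and a log2 fold change of -0.35 (SE 0.04). Between 3127 and 4699 reads lay behind each value.

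The neighbours of MYC did not share one direction. TRIB1, a pseudokinase that brings substrates to the ubiquitin ligase COP1, stood at 5.58 and 5.77 FPKM in the controls and at 10.1 and 8.74 FPKM in the libraries labelled knockdown. Among the 6 tested genes grouped around MYC, which are MYC and genes before it, only TRIB1 was called higher. FAM49B, the coding gene next after MYC in the set, was also called higher, with a log2 fold change of 0.22. SQLE, left out by symbol, lies among the 6 and was called lower, at -0.85. FAM84B, the coding gene next before MYC in the set, was flat by comparison, at 18.6 and 18.8 FPKM against 17.7 and 17.9 FPKM, and was not called. WASHC5, a subunit of the WASH complex that drives actin assembly on endosomes, stood at 13.3 and 12.6 FPKM against 13.1 and 13.6 FPKM, with overlapping groups. NSMCE2, the SUMO ligase of the SMC5/6 complex, stood at 5.82 and 5.49 FPKM against 6.32 and 6.41 FPKM. The zinc finger gene ZNF572 was lower in both libraries labelled knockdown, at 1.61 and 1.46 FPKM against 1.98 and 2.38 FPKM, and was not called. PVT1 (ENSG00000249859) stood at 1.84 and 1.69 FPKM in the controls and 2.24 and 2.23 FPKM in the libraries labelled knockdown, with a log2 fold change of 0.23 that was not called.

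LY6D and LY6E, both of the LY6 cluster, had the largest log2 fold changes of the genes kept in the stretch. PSCA, also of the cluster, had 1.19, below GPAA1 at 1.31 and EPPK1 at 1.22, both described below. By ratio of mean FPKM PSCA, at 3.75, lay above GPAA1 at 2.65 and EPPK1 at 2.58. Of the 12 listed genes of the cluster 3 reached a mean of 1 FPKM, PSCA only through the libraries labelled knockdown. All 3 were called higher, beside 16.8% of all tested genes. The selection used this contrast, so nothing is read from that count. LY6D (ENSG00000167656, 142784880 to 142786592, minus strand), a surface protein known from keratinocytes and squamous epithelium, stood at 3.73 and 4.52 FPKM in the controls and at 18.4 and 20.6 FPKM in the libraries labelled knockdown. Both latter libraries lay far above both controls, with means of 4.13 ± 0.556 and 19.5 ± 1.55 FPKM (SD, n = 2 each), a ratio of 4.73 and a log2 fold change of 2.00 (SE 0.10). The reads behind these levels were 102, 138, 494 and 543.

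LY6E (ENSG00000160932, 143017982 to 143023832, plus strand), an interferon-inducible surface protein known to restrict coronavirus entry, was expressed most strongly of the 3. It stood at 8.16 and 7.09 FPKM in the controls and at 25.5 and 26.2 FPKM in the libraries labelled knockdown, again without overlap, for a ratio of 3.39 and a log2 fold change of 1.64 (SE 0.07). PSCA (ENSG00000167653, 142670308 to 142682724, plus strand), prostate stem cell antigen, was the lowest, at 0.839 and 0.924 FPKM against 2.92 and 3.68 FPKM. Its values rest on 26, 32, 89 and 110 reads, and its log2 fold change was 1.19 (SE 0.12). PSCA passed the level of 1 FPKM only through the libraries labelled knockdown. Of its exon bases 20.9% overlap those of other genes, on the opposite strand those of JRK, and no source used here says whether the counting used strand.

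Genes next to the 3 differed less than they did. THEM6, between PSCA and LY6D, stood at 13.2 and 12.6 FPKM in the controls and at 12.9 and 15.1 FPKM in the libraries labelled knockdown, with overlapping groups. JRK, which overlaps PSCA and encodes a DNA-binding protein linked to Wnt signalling, stood at 3.69 and 3.17 FPKM against 5.30 and 4.89 FPKM, a log2 fold change of 0.46. Its call was lost without control 2 and without either library labelled knockdown. The rest of the cluster was close to silent. LYNX1, a modulator of nicotinic receptors, had 13 and 16 reads in the controls and 27 and 27 in the libraries labelled knockdown, and GPIHBP1, which carries lipoprotein lipase in capillaries, had 0 and 0 against 4 and 6. LY6K had 2, 0, 0 and 2 reads and SLURP1 had 1, 1, 0 and 3. The readthrough gene LYNX1-SLURP2, counted outside the 12, had 0, 0, 0 and 1. The remaining 5 of the 12 were listed at 0 in all 4 libraries.

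Genes grouped under adhesion, the cytoskeleton and cell polarity made up 12 of the 80. The grouping is loose and takes in EFR3A and GSDMD, for which these are not the main known roles. Of the 12, 10 were called higher, RHPN1 lower and ASAP1 not called, with a median log2 fold change of 0.70. Of all tested genes 16.8% were called higher, as were most of the 80. The selection used this contrast, so the group counts here and below are no result about a function. EPPK1, the cytolinker epiplakin that binds keratin filaments, stood at 5.54 and 4.89 FPKM in the controls and at 14.1 and 12.8 FPKM in the libraries labelled knockdown, a ratio of 2.58. FAM83H, which organises keratin filaments in epithelial cells, stood at 48.5 and 50.2 FPKM against 85.3 and 83.0 FPKM. SCRIB, the scaffold of the basolateral polarity module, stood at 30.5 and 28.8 FPKM against 51.6 and 49.6 FPKM. In each of these genes both libraries labelled knockdown lay above both controls, as they did for KIFC2, a kinesin motor, at 13.0 and 13.3 FPKM against 23.3 and 22.3 FPKM. PTP4A3, the phosphatase PRL-3 known from metastatic colorectal cancer, stood at 2.61 and 2.12 FPKM against 5.26 and 5.12 FPKM, a ratio of 2.19. RHPN1 went the other way, at 4.88 and 4.85 FPKM against 3.21 and 2.73 FPKM, for a log2 fold change of -0.57 (SE 0.08). The call on RHPN1 was lost when no filter on low values was applied.

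Genes grouped under RNA processing, translation and ribosome assembly numbered 11, including PHF20L1 and C8orf33, whose place in this loose group is not established. Of the 11, 10 were called higher and HGH1 was not called, with a median log2 fold change of 0.54. MAF1, the repressor of RNA polymerase III, stood at 26.9 and 26.5 FPKM in the controls and at 41.3 and 45.4 FPKM in the libraries labelled knockdown. PUF60, a splicing factor also known to repress MYC through an upstream DNA element, stood at 22.1 and 20.7 FPKM against 33.5 and 34.1 FPKM. BOP1, part of the PeBoW complex that matures large-subunit ribosomal RNA and a gene MYC is known to activate, stood at 22.9 and 21.6 FPKM against 29.3 and 27.0 FPKM. The groups did not overlap for any of these, but the call on BOP1 was lost without control 2 and without knockdown 1.

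The 5 DNA repair and topology genes showed smaller differences, with 3 called higher and a median log2 fold change of 0.22. RECQL4, a DNA helicase mutated in Rothmund-Thomson syndrome, stood at 18.4 and 17.8 FPKM in the controls and at 23.6 and 21.6 FPKM in the libraries labelled knockdown. TONSL, a scaffold of repair at stalled replication forks, stood at 7.58 and 7.52 FPKM against 8.86 and 9.02 FPKM. PARP10, a mono-ADP-ribosyltransferase, was not called at 12.02 and 11.3 FPKM against 13.5 and 12.7 FPKM. The call on TONSL was lost whichever library was left out, and that on RECQL4 without either control or without knockdown 1.

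Metabolic enzymes numbered 8, with 6 called higher, PYCR3 and GPT not called, and a median log2 fold change of 0.54. GPAA1, a subunit of the transamidase that attaches GPI anchors to proteins, stood at 8.63 and 8.59 FPKM in the controls and at 23.0 and 22.6 FPKM in the libraries labelled knockdown, a ratio of 2.65. NAPRT, which starts the synthesis of NAD from nicotinic acid, stood at 13.3 and 13.0 FPKM against 31.8 and 30.1 FPKM, a ratio of 2.352. DGAT1, which completes triglyceride synthesis, stood at 15.9 and 16.05 FPKM against 22.3 and 23.0 FPKM. All 3 had groups far apart relative to their spread, with SDs of at most 1.196 FPKM. ADCK5, of a family of atypical mitochondrial kinases, stood at 4.85 and 5.44 FPKM against 11.0 and 10.04 FPKM.

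Transport and membrane traffic genes numbered 10, with 9 called higher, TRAPPC9 not called, and a median log2 fold change of 0.63. VPS28, a subunit of the ESCRT-I sorting complex, stood at 5.30 and 5.68 FPKM in the controls and at 10.5 and 10.2 FPKM in the libraries labelled knockdown, a ratio of 1.89. GRINA, a membrane protein of the TMBIM family, stood at 35.6 and 36.8 FPKM against 50.01 and 52.2 FPKM. SLC52A2, a riboflavin transporter, stood at 21.4 and 20.9 FPKM against 36.1 and 34.0 FPKM, and 44.2% of its exon bases overlap those of other genes. None of these groups overlapped. MFSD3, of the major facilitator family, stood at 22.8 and 23.2 FPKM against 27.4 and 26.2 FPKM, and its call was lost without either control or without knockdown 1.

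Zinc finger genes and other transcription regulators numbered 12, with 7 called higher, 5 not called, and a median log2 fold change of 0.38. SCX, the tendon regulator scleraxis, stood at 6.38 and 5.35 FPKM in the controls and at 12.4 and 10.9 FPKM in the libraries labelled knockdown. It lies within an intron of BOP1 on the opposite strand, and its exons overlap no other gene. ZNF623 stood at 4.17 and 4.31 FPKM against 5.95 and 6.16 FPKM. The 5 genes not called (ZFAT, ZFP41, ZNF517, ZNF7 and ZNF16) were all higher in both libraries labelled knockdown than in either control, at levels under 3 FPKM. The same held for 35.9% of all tested genes, so nothing is read from it.

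Genes of kinases, phosphatase subunits and ubiquitin ligase subunits numbered 10, and all 10 were called higher, with a median log2 fold change of 0.64. They include TRIB1, PTP4A3 and ADCK5 from above, and FBXL6, a substrate receptor of SCF ubiquitin ligases, at 7.70 and 7.66 FPKM in the controls against 11.6 and 11.9 FPKM in the libraries labelled knockdown. The 8 genes placed in no functional group had 7 called higher and THEM6 not called, with a median of 0.38. On the log2 scale the 3 genes of the LY6 cluster lay between 1.19 and 2.00 and the 5 DNA repair genes between 0.15 and 0.40. PSCA, at 1.19, passed the level of 1 FPKM only through the libraries labelled knockdown. The selection used these values, so nothing is read from the gap between the groups.

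**Figure D4:**
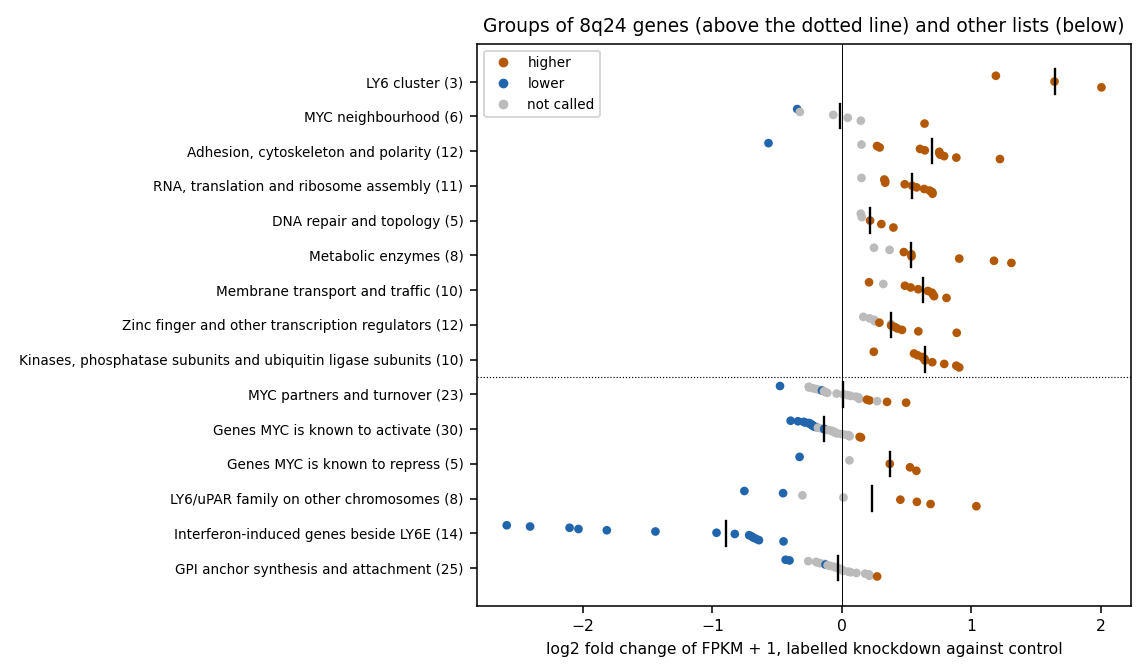
Log2 fold change of FPKM + 1 (x axis) of each tested gene by functional group, with the 8q24 groups above the dotted line and lists of genes related to MYC and LY6 below it. Points are coloured by call, the vertical bar is the group median, and the number tested is in parentheses. Group medians above the line run from -0.01 around MYC to 1.64 in the LY6 cluster, and the 14 interferon-induced genes below the line all lie under 0.

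Genes of the stretch that did not reach 1 FPKM were counted by reads. Of the 45 such coding genes 19 were listed at 0 in all libraries. The other 26 together had 406 and 452 reads in the controls and 578 and 612 in the libraries labelled knockdown. Both libraries labelled knockdown lay above both controls for 12 of them and below both for 2. Among all tested genes, which have higher levels, the shares were 35.9% and 33.8%. Some of the 12 rest on few reads, such as GPIHBP1 with 0 and 0 against 4 and 6, so nothing is read from these counts. Of all tested genes 16.8% were called higher and 13.0% lower. Genes of other types, such as long non-coding RNAs and pseudogenes, numbered 11 at a mean of at least 1 FPKM, with 2 called higher (MIR4664 and ZNF252P), TSSK5P called lower and 8 not called. These 3 are named because their number is small, after their values were seen. The counts among the 11 are near the shares over all tested genes and are no result about these gene types. MIR4664, with 32 to 69 reads, lies within FAM83H on the same strand. Whether its level is separate from that of FAM83H was not tested.

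As a set, the 80 genes were richer in GC than the rest of the chromosome. GC content was taken from the longest transcript of each gene. Its median was 62.7%, beside 48.8% over all tested genes and 42.7% over the other coding genes of chromosome 8. It was 43.8% for the 8 genes before EFR3A and 63.2% for the 72 from EFR3A on. With the trend of each library on GC content and exon length removed, 60 genes were called higher and the median log2 fold change was 0.46. Without that removal 16.8% of all tested genes were called higher, and the share with it is not given here. The part of GC content in the higher levels was not tested. Across the 80 genes, which share libraries and are not independent replicates, the log2 fold change had a Pearson r of 0.27 (Spearman coefficient 0.24) with GC content and of -0.07 (Spearman coefficient -0.01) with the level in the controls. It had an r of 0.35 (Spearman coefficient 0.14) with position. The 34 genes whose exons overlap no other gene had 25 called higher and 2 lower, with a median of 0.44, and the 19 with over 10% of exon bases overlapping had 15 called higher and a median of 0.49. Among the latter are LY6D, with 13.9% of its exon bases overlapping, NAPRT with 37.3% and FBXL6 with 37.0%. The counts by overlap stand beside 16.8% of all tested genes called higher and 13.0% lower, and the part of exon overlap was not tested.

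Genes tied to MYC elsewhere in the genome were counted by the same call, which marked 16.8% of all tested genes as higher and 13.0% as lower. Of 30 tested genes that MYC is known to activate 14 were called lower, 2 higher and 14 not called, with a median log2 fold change of -0.14. CAD, which starts pyrimidine synthesis, stood at 32.4 and 33.3 FPKM in the controls and at 24.99 and 24.4 FPKM in the libraries labelled knockdown. SHMT2, a mitochondrial enzyme of one-carbon metabolism, stood at 72.3 and 68.4 FPKM against 55.1 and 55.7 FPKM. Both fell beyond the spread between libraries, as did the nucleolar proteins NOLC1, with a log2 fold change of -0.30, and NCL, at -0.24. The number called lower was 6 without control 1, 9 without control 2, 6 without knockdown 1, 9 without knockdown 2 and 7 with no filter on low values. The number called higher, 2 genes (ODC1 and TFRC), was 0 or 1 in each of those fits.

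Of 5 tested genes that MYC is known to repress 3 were called higher, a count too small to set against the share over all tested genes. CDKN1A, the cell-cycle inhibitor p21, stood at 314 and 327 FPKM in the controls and at 485 and 439 FPKM in the libraries labelled knockdown. CEBPA, a differentiation factor, had a log2 fold change of 0.57, a call lost without either control, and the stress gene GADD45A one of 0.37. CDKN1B, the inhibitor p27, was called lower, with a log2 fold change of -0.33. MYC partners and turnover factors had 23 tested genes, with 4 called higher, 2 lower and a median of 0.01. These counts are near the 16.8% and 13.0% of all tested genes and are no result about the list, so its members are given as values only. RUVBL1, an ATPase of chromatin-remodelling complexes, stood at 16.6 and 16.3 FPKM against 11.1 and 11.96 FPKM, and its relative RUVBL2 had a log2 fold change of -0.15. MYCBP2, a ubiquitin ligase that binds MYC, had a log2 fold change of 0.50 and MXD1, a competitor for the partner MAX, one of 0.35. Without one library, the number called lower in this list was 1 or 2 and the number called higher 1 or 2, and the calls on RUVBL2 and, in 3 of these 4 fits (all but without control 2), MXD1 were lost. With voom on recovered reads 8 of its genes were called lower.

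LY6/uPAR family genes on other chromosomes were mixed in direction, with 4 of 8 tested called higher and 2 lower, beside 16.8% and 13.0% of all tested genes. LY6G6C, a LY6 gene of chromosome 6, stood at 5.57 and 6.27 FPKM in the controls and at 12.6 and 13.8 FPKM in the libraries labelled knockdown. PLAUR, the urokinase receptor, had a log2 fold change of 0.58 and CD59, the inhibitor of the complement membrane attack complex, one of 0.45. LYPD6B had one of -0.75. The number called lower in this family was 1 whichever library was left out and 0 with no filter on low values.

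Interferon-induced genes, of which LY6E is one, went opposite to LY6E. All 14 tested were called lower, beside 13.0% of all tested genes, with a median log2 fold change of -0.90. IFI6 stood at 494 and 558 FPKM in the controls and at 127 and 128 FPKM in the libraries labelled knockdown. IFITM1, which blocks virus entry, stood at 22.2 and 26.7 FPKM against 3.06 and 3.39 FPKM. For both, the controls lay several times above the other libraries, as they did for MX1 and OAS2, with log2 fold changes of -2.10 and -1.81.

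The other genes of GPI anchor synthesis and attachment did not share the higher level of GPAA1. Of 25 tested 1 was called higher, 3 lower and 21 not, with a median log2 fold change of -0.03. The number lower is near the 13.0% of all tested genes and is no result about the list, so its members are given as values only. DPM1, the catalytic subunit of dolichol phosphate mannose synthase, had a log2 fold change of 0.27 and its partner DPM3 one of -0.13. The mannosyltransferase gene PIGM and the acyltransferase gene PIGW had values of -0.43 and -0.40. The number called lower was 1 without control 1 and without knockdown 2, DPM3 was not called whichever library was left out, and DPM1 was not called without knockdown 2.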

How the data were processed

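Gene-level FPKM values were deposited by the authors, 1 file per library, for 2 control and 2 PPDPF knockdown libraries of HT8. Reads were aligned with HISAT2 2.0.5 to hg18, per the submitters' processing notes; the counting tool, annotation and strand setting are not named by the labels, notes or headers used here. All 58735 gene identifiers matched GENCODE 29 (GRCh38). FPKM multiplied by the exon length of that annotation gave whole reads for 100% of values above 0, within 0.01 reads, so its coordinates are used. Genes of mean FPKM of at least 1 were tested with limma 3.58.1 in R 4.3.3 on log2(FPKM + 1) with a mean-dependent variance trend, 2 residual degrees of freedom, two-sided, Benjamini-Hochberg adjusted over 12777 genes and called under 0.05. The fit was tested on simulated data.

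Log2 fold changes are on the log2(FPKM + 1) scale, which understates changes of low genes; SE is limma's moderated standard error. Figures were drawn with matplotlib 3.10.9. The stretch, its gene groups and all lists were chosen with earlier results of these data known. Genes named are MYC, the LY6 cluster, the 10 largest and 5 smallest fold changes and all members called lower. Also named are the genes nearest the start of the stretch, up to 3 highest-expressed genes per group and the 4 smallest p per other list. EFR3A, FAM49B, GSDMD, PHF20L1, C8orf33 and genes named only as not called were added after their values were seen. Alternatives changed the normalization, filter, pseudocount, pairing, libraries, test, scaling, composition and threshold. No sequence is printed.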

Additional observations from a re-analysis of the deposited data

How the results depend on the processing

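The median log2 fold change of the 80 genes was 0.485. It was 0.460 with quantile normalization, 0.549 over the 56 genes left by a minimum of 5 in mean FPKM, 0.544 with a pseudocount of 0.1, 0.533 with voom on recovered reads, 0.477 scaled to non-mitochondrial reads and 0.461 with the GC and length trend removed. Leaving out each library in turn gave 0.468 to 0.496. The number called higher, 62, lay between 43 (adjusted p under 0.01) and 67 (voom), and was 46 to 48 with a library left out and 57 with the replicate block. Same-numbered libraries did not deviate together (correlation of the replicate differences -0.002), so the numbers give no pairing. Members called lower numbered 1 with no filter and 1 with that minimum, in place of 2. All 80 genes kept the sign of their fold change in every setting, and 44 were called in each one that tested them. PARP10 and ZNF572 were called only with voom on recovered reads. With 2 libraries a group and 2 residual degrees of freedom, small differences such as those of RECQL4, TONSL, BOP1, JRK and MFSD3 depended on single libraries, and low genes such as PSCA rest on few reads (26 at the lowest).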
